A study of Mus musculus with 9 samples.

Results

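The cilia and flagella associated proteins, encoded by the Cfap genes, are a numbered set of parts of the axoneme, the microtubule core of motile cilia and of the sperm tail. Members were taken by symbol: every protein-coding gene of the GENCODE M21 annotation whose symbol is Cfap followed only by digits. This rule gave 29 genes of the 32035 genes to which the transcripts in the files were assigned, or of 21743 protein-coding genes. All 29 passed the filter on low counts in each comparison. RefSeq lists 31 Cfap symbols, and the additional 2, Cfap410 and Cfap47, carried other symbols in the annotation used and are given separately at the end of the first comparison.

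RNA of whole testes was sequenced in triplicate from WT, Kpna6ΔIBB/ΔIBB and Kpna6-/- mice, giving 3 samples per genotype. All mice were male, aged 15 weeks and on the C57Bl6/N strain after 10 generations of backcrossing. Whether the 3 samples of a genotype came from 3 mice is not stated, and each sample is called a testis here. Kpna6 encodes a karyopherin α (importin α), an adaptor that carries proteins into the nucleus. Kpna6ΔIBB/ΔIBB mice lack exon 2 and make a truncated protein without the karyopherin β binding domain, and Kpna6-/- mice carry a gene trap in intron 1. The gene trap does not remove the protein from the whole testis, since, as described for this line, germ cells use a testis-specific first exon, so the line is a model of loss outside the germ cells. Both are germline alleles, and every sample was whole testis with germ cells and somatic cells together.

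An axoneme is built of 9 outer doublet microtubules around a central pair. Microtubule inner proteins line the inside of the doublets, dynein arms on the doublets make them slide, radial spokes carry signals inward, and the central apparatus is the set of projections on the central pair. In the testis the axoneme is assembled in spermatids after meiosis, and mutations of many Cfap genes cause short, irregular or immotile sperm tails.

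The estimated counts on genes ranged from 24859751 to 31484692 per sample. Kpna6 itself had 83.8 ± 2.25 CPM (counts divided by a normalized library size; mean ± SD of 3 testes) in Kpna6ΔIBB/ΔIBB and 289 ± 75.1 CPM in WT testes, and edgeR's quasi-likelihood test with Benjamini-Hochberg adjustment gave a log2 fold change of -1.79 (adjusted P = 1.94e-05). In Kpna6-/- testes the Kpna6 log2 fold change against WT was -0.18 (adjusted P = 0.586), so the gene count did not separate this line from WT. CPM values are scaled to the libraries of one comparison, so the same WT testis has slightly different values in different comparisons.

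Every Cfap gene was detected in every testis. Levels between genes are compared here in TPM, which scales for transcript length and library total. In WT the highest level was that of Cfap206, at the base of a radial spoke, with 560, 580 and 578 TPM, followed by Cfap36, a binding partner of the small GTPase Arl3, with 483, 460 and 472 TPM. These ranges did not overlap. Cfap298, needed to preassemble dynein arms in the cytoplasm, had 315, 340.5 and 325 TPM, above the 308, 305 and 301 TPM of Cfap69 of the central apparatus. Cfap126, a microtubule inner protein also called Flattop, came next with 205, 190 and 203 TPM. These levels sum all transcripts of a gene, and part of them lay on types other than protein coding (WT means). That part was 40.5% in Cfap69, 31.6% in Cfap36, 17.6% in Cfap206, 13.9% in Cfap126 and 5.83% in Cfap298. The lowest mean belonged to Cfap54 of the central apparatus, with 17.0, 17.9 and 14.6 TPM in WT, and the WT ranges of the genes just above it, Cfap77 and Cfap73, overlapped each other. The 29 genes together had 3678 to 3803 TPM in WT, 3375 to 3643 TPM in Kpna6ΔIBB/ΔIBB and 3547 to 3655 TPM in Kpna6-/- testes. The summed TPM of every mutant testis was thus below that of all WT testes, and the ranges of the mutant lines overlapped each other.

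**Figure D1:**
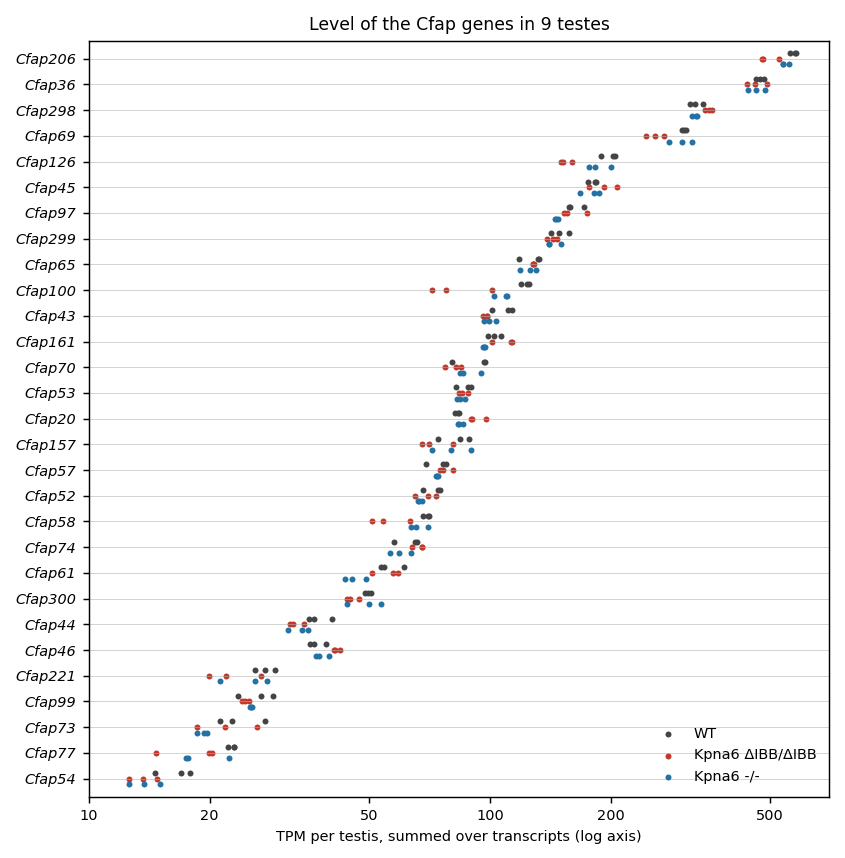
TPM of each Cfap gene in each of the 9 testes on a log axis, with 3 points per genotype and genes ordered by the WT mean. Cfap206 lies at the top, from 478 to 580 TPM, and Cfap54 at the bottom, from 12.6 to 17.9 TPM.

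The comparison of Kpna6ΔIBB/ΔIBB with WT asked which Cfap genes differ in testes that make only truncated protein. Of the 29 genes, 18 fell, 0 rose and 11 did not pass the test at an adjusted P of 0.05. Among all 18797 genes tested, 18.9% were called lower and 17.7% higher, whereas 62.1% of the Cfap genes were called lower. The log2 fold change was negative for 28 of the 29 genes, and its median was -0.22, against 0.01 for all genes tested. The differences were small in size: they ran from -0.46 for Cfap100 to 0.04 for Cfap20, and none reached 1 on the log2 scale. For 18 genes all 3 Kpna6ΔIBB/ΔIBB testes were below all 3 WT testes, which held in this direction for 24.7% of all genes tested. In a bulk sample, fewer cells of a type and less RNA per cell cannot be told apart. CPM and TPM are also relative, so a value depends on the RNA of all other genes. These limits apply to each difference reported here.

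The split depended on the scaling. With scaling by library size alone, the median of all genes moved up to 0.11 and the Cfap median was -0.13 (log2). Called lower were 13 Cfap genes, and 2 were called higher, Cfap20 and Cfap298. Among all 18797 genes tested, 2326 were called lower and 5416 higher with this scaling. With limma on log2(TPM + 1), where the median of all genes was 0.10, 5 Cfap genes were called lower and 1 higher, Cfap20, with a median of -0.10. Here 1539 of all 18708 genes tested were called lower and 3770 higher. Relative to the median of all genes, the Cfap median was thus lower on each of these scales. The calls of Cfap58, Cfap69, Cfap100, Cfap126 and Cfap206 were kept in each of the 14 alternatives tried.

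Among the 7 microtubule inner proteins, 3 fell and 4 did not pass the test. Cfap126, which lies in the doublet lumen, had 80.0, 75.0 and 78.4 CPM in Kpna6ΔIBB/ΔIBB and 110, 104 and 106 CPM in WT testes. The highest mutant testis was well below the lowest WT testis, and the gene fell by 27.2%, with a log2 fold change of -0.46 (SE 0.0456, 95% interval -0.56 to -0.36, adjusted P = 4.17e-05). Cfap77, another inner protein of the doublet, had 13.0, 17.2 and 16.8 CPM against 21.9, 20.0 and 20.7 CPM in WT. The groups did not overlap and the log2 fold change was -0.41 (SE 0.103, adjusted P = 0.0103), with 1 mutant testis below the other 2. With protein-coding transcripts only it was -0.25 and did not pass (adjusted P = 0.0832). Cfap52 had a log2 fold change of -0.22 (adjusted P = 0.0125). Cfap20, which closes the inner junction of the doublet, had 72.7 ± 3.15 CPM (SD, n = 3) against 71.0 ± 0.960 CPM (SD, n = 3), with an interval of -0.07 to 0.14 (log2) around the difference of 0.04. The other inner proteins that did not pass, Cfap45, Cfap53 and Cfap161, had log2 fold changes of -0.06, -0.12 and -0.04.

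Of the 5 genes for the tether and base of inner dynein arms, 3 fell. Cfap100, part of a complex that binds inner arms to the doublet, had 50.4, 51.4 and 62.0 CPM in Kpna6ΔIBB/ΔIBB and 75.5, 72.2 and 78.4 CPM in WT. It fell by 27.4% (log2 fold change -0.46, SE 0.0755, adjusted P = 0.000828), and its 3 mutant values were spread more widely than the WT values. Cfap44 and Cfap43 form the tether that holds the motor domains of an inner arm. Cfap44 had 87.3, 95.5 and 90.9 CPM against 113, 126 and 119 CPM (log2 fold change -0.39, SE 0.0531, adjusted P = 0.00028). Cfap43 had 311, 321 and 328 CPM against 362, 406 and 396 CPM (-0.28, adjusted P = 0.000883), so both tether genes were lower in all 3 mutant testes. Cfap73, the partner of Cfap100 in that complex, had 10.9, 13.1 and 9.33 CPM against 12.4, 15.1 and 11.3 CPM. The groups overlapped, and the interval of its log2 fold change of -0.23 ran from -0.53 to 0.08 (adjusted P = 0.233), which does not separate it from Cfap100. Cfap57 had a log2 fold change of -0.07 (adjusted P = 0.292).

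Both genes of the radial spoke base fell. Cfap206 had 514, 532 and 573 CPM against 669.5, 696 and 673 CPM in WT, with no overlap and a log2 fold change of -0.33 (SE 0.0424, adjusted P = 0.000175). Cfap61, part of the complex at the foot of a radial spoke, had 58.8, 63.8 and 69.7 CPM against 73.9, 77.5 and 70.8 CPM. The highest mutant and lowest WT testes were close, and the log2 fold change was -0.21 (SE 0.0648, adjusted P = 0.0282).

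Of 8 central apparatus genes, 5 fell. Cfap221, also known as Pcdp1, had 26.8, 27.1 and 28.8 CPM in Kpna6ΔIBB/ΔIBB and 36.7, 34.5 and 37.0 CPM in WT (log2 fold change -0.39, SE 0.0589, adjusted P = 0.000516). Cfap54, a partner of Cfap221 in one projection of the central pair, had 56.2, 58.2 and 51.6 CPM against 69.3, 75.4 and 66.8 CPM (-0.35, adjusted P = 0.00139). Cfap69 had 320, 330 and 348 CPM against 410, 410 and 406 CPM (-0.30, SE 0.0389, adjusted P = 0.000199). None of these 3 genes had a mutant testis within the WT range. Cfap99 and Cfap70 had log2 fold changes of -0.23 (adjusted P = 0.0241) and -0.22 (adjusted P = 0.00232). Cfap46 and Cfap74, which belong to the same projection as Cfap54 and Cfap221, did not pass the test, with log2 fold changes of -0.07 (interval -0.17 to 0.03) and -0.07 (interval -0.19 to 0.04). Cfap65 had -0.11 (adjusted P = 0.0827).

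The pair of dynein arm assembly factors gave unlike values. Cfap300 had 45.6, 47.7 and 45.3 CPM in Kpna6ΔIBB/ΔIBB and 56.4, 55.9 and 53.0 CPM in WT (log2 fold change -0.25, SE 0.0504, adjusted P = 0.00265). Cfap298 had 196, 201 and 201.5 CPM against 197.5, 205 and 197 CPM. Its log2 fold change of -0.0034 had an interval of -0.09 to 0.08, which excludes the value of Cfap300, and its sign turned with library-size scaling (0.09) and on the TPM scale (0.10). The difference between the genes was not itself tested.

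Of the 5 remaining genes 4 fell. Cfap58, required to build the sheath and midpiece of the sperm tail, had 120, 128 and 152 CPM in Kpna6ΔIBB/ΔIBB and 183, 185 and 173 CPM in WT. It fell by 26.0% (log2 fold change -0.43, SE 0.0745, adjusted P = 0.00113), and the third mutant testis lay between the others and WT. Cfap157, a basal body protein of spermatids, had 63.6, 63.8 and 71.8 CPM against 80.2, 84.8 and 85.0 CPM (-0.33, SE 0.0572, adjusted P = 0.00129). Cfap299 and Cfap36 had log2 fold changes of -0.18 (adjusted P = 0.0282, and 0.0863 with protein-coding transcripts only) and -0.14 (adjusted P = 0.0153). Cfap97 had -0.14 (adjusted P = 0.0803) and did not pass.

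The smaller calls depended on single testes. Without the first Kpna6ΔIBB/ΔIBB testis 13 genes were called, and Cfap36 (adjusted P = 0.0675), Cfap52 (0.0563), Cfap61 (0.110), Cfap99 (0.0681) and Cfap299 (0.109) were no longer among them. Leaving out the second Kpna6ΔIBB/ΔIBB testis removed the calls of Cfap36 (adjusted P = 0.0612), Cfap61 (0.0812), Cfap99 (0.0871) and Cfap299 (0.0509). Leaving out the first WT testis removed those of Cfap36 (0.0519) and Cfap61 (0.0592), and leaving out the second WT testis those of Cfap52 (0.0512), Cfap61 (0.0995), Cfap99 (0.0725) and Cfap299 (0.0952). Without the third WT testis Cfap99 (0.0841) and Cfap299 (0.0668) were not called. Conversely, Cfap65 (0.00858) and Cfap74 (0.0331) were called without the first WT testis, Cfap53 (0.0454) and Cfap97 (0.0385) without the third one, and Cfap97 (0.0468) without the second Kpna6ΔIBB/ΔIBB testis. When other genes with stretches of near-identical sequence were summed with a member, Cfap54 had -0.11 (adjusted P = 0.025), Cfap61 had -0.12 and was not called (0.0523), and Cfap161 had -0.16 and was called (0.0424). The genes that RefSeq names Cfap410 and Cfap47 (1810043G02Rik and Gm7173 in the annotation used) had log2 fold changes of 0.14 (adjusted P = 0.102) and -0.07 (adjusted P = 0.632).

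**Figure D2:**
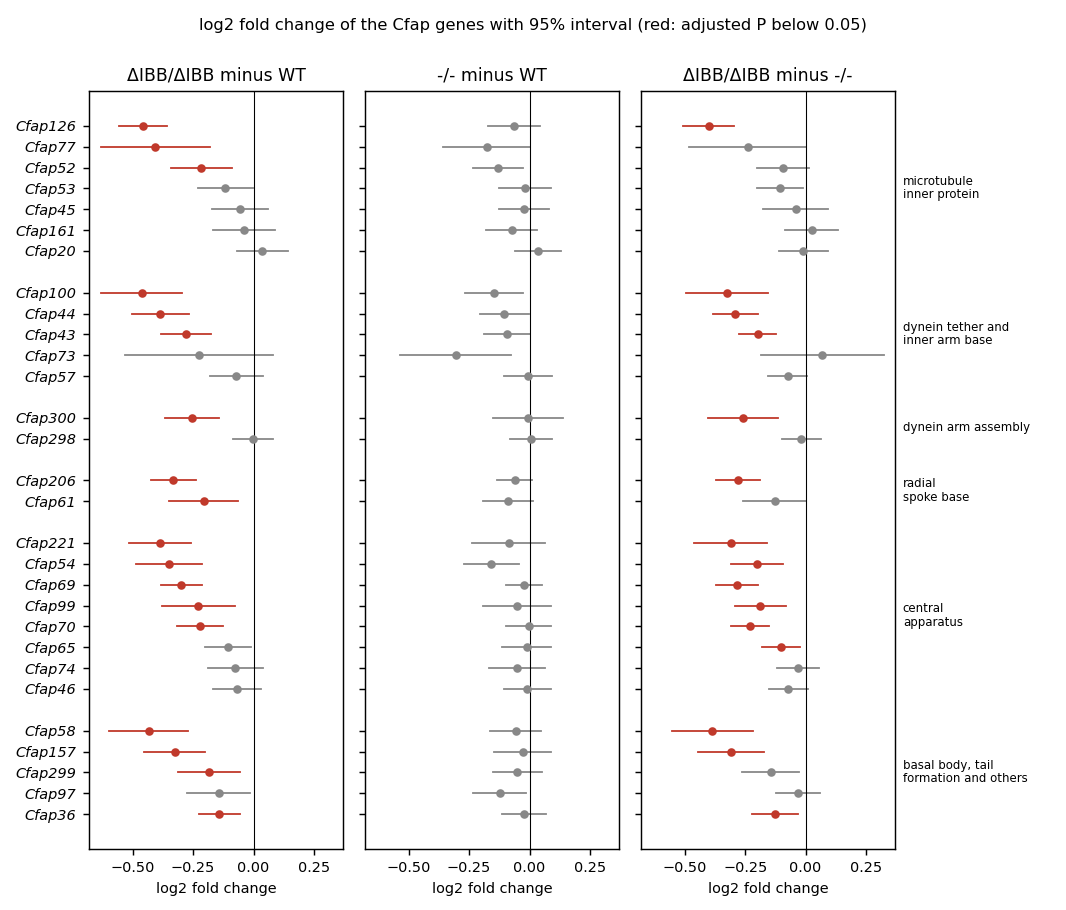
log2 fold change of each Cfap gene (point) with its 95% interval (line) in the 3 comparisons, grouped by the place of the protein in the axoneme, with red marking an adjusted P below 0.05. Against WT, 18 genes are red in Kpna6ΔIBB/ΔIBB (left) and 0 in Kpna6-/- testes (middle), and 15 are red between the mutant lines (right).

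The comparison of Kpna6-/- with WT asked whether loss of Kpna6 outside the germ cells goes with different Cfap levels. In edgeR's quasi-likelihood test 0 of 29 genes were called after adjustment, where 1.6% of 18681 genes tested were called. At an unadjusted P below 0.05 there were 6 Cfap genes, against 14.9% of all genes tested, and DESeq2 and limma on log2(TPM + 1) also called 0. The log2 fold change was negative for 27 genes, with a median of -0.05, against 0.002 for all genes tested. In 7 genes all Kpna6-/- testes were below all WT testes, which held in this direction for 9.98% of all genes tested.

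Among the genes that fell in Kpna6ΔIBB/ΔIBB testes, the estimates in Kpna6-/- testes differed in size. Cfap126 had 96.8, 94.7 and 105 CPM in Kpna6-/- and 107, 101 and 103 CPM in WT testes, with a log2 fold change of -0.07 (interval -0.17 to 0.04, adjusted P = 0.598). Cfap58 had 165, 160 and 179 CPM against 178, 179 and 167 CPM (-0.06, interval -0.16 to 0.05). In both genes the groups overlapped. Cfap69 had a log2 fold change of -0.02 (interval -0.10 to 0.05) and Cfap157 one of -0.03 (interval -0.15 to 0.09). Cfap206 had 638.5, 620 and 634 CPM against 651, 674 and 651 CPM. These groups did not overlap, but the difference of -0.06 did not pass the test (adjusted P = 0.415).

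Other genes that fell in Kpna6ΔIBB/ΔIBB testes had estimates further from 0 that did not pass after adjustment either. Cfap54 had 60.9, 61.0 and 61.7 CPM in Kpna6-/- and 67.4, 73.0 and 64.6 CPM in WT testes (log2 fold change -0.16, interval -0.27 to -0.05, unadjusted P = 0.00993, adjusted P = 0.167 in edgeR). Cfap52 had 96.8, 97.5 and 99.75 CPM against 102, 113 and 107 CPM (-0.13, interval -0.23 to -0.03, adjusted P = 0.215). All Kpna6-/- testes were below all WT testes in both genes. Cfap44 had 106.5, 109 and 107 CPM against 110, 122 and 115 CPM (log2 fold change -0.10, adjusted P = 0.319), with no overlap, and Cfap221 had -0.09 (adjusted P = 0.621). Cfap100 had a log2 fold change of -0.15 (interval -0.27 to -0.03 before adjustment, adjusted P = 0.241) and Cfap77 one of -0.18 (adjusted P = 0.347). The most negative estimate was that of Cfap73, picked out after its values were seen, with 9.84, 10.4 and 10.3 CPM against 12.1, 14.6 and 10.96 CPM (-0.31, SE 0.106, adjusted P = 0.195). Cfap73 had the fewest counts of the 29 genes. Cfap298 had 194 ± 6.28 CPM (SD, n = 3) against 194 ± 4.22 CPM (SD, n = 3), a log2 fold change of 0.0047.

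The mutant lines were then compared with each other, which sets the truncated protein against loss outside the germ cells. This comparison shares its Kpna6ΔIBB/ΔIBB testes with the first, so the comparisons are not independent. In Kpna6ΔIBB/ΔIBB relative to Kpna6-/- testes 15 Cfap genes fell, 0 rose and 14 did not pass, where 16.8% of 18752 genes tested were called lower and 13.5% higher. The median log2 fold change was -0.14, against 0.005 for all genes tested. In 19 genes all Kpna6ΔIBB/ΔIBB testes were below all Kpna6-/- testes, which held in this direction for 23.1% of all genes. With scaling by library size alone 10 genes were called lower and 0 higher (median -0.04, all genes 0.10). Among all 18752 genes, 2016 were then called lower and 4931 higher. With limma on log2(TPM + 1) 2 Cfap genes were lower and 3 higher, Cfap61, Cfap161 and Cfap298 (median -0.0055, all genes 0.12). Of all 18648 genes tested with limma, 1258 were called lower and 3554 higher.

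Cfap126 had 79.5, 75.0 and 78.7 CPM in Kpna6ΔIBB/ΔIBB against 100, 98.4 and 109 CPM in Kpna6-/- testes, with a log2 fold change of -0.40 (SE 0.0484, adjusted P = 9.15e-05). Cfap58 had 120, 128 and 153 CPM against 171, 167 and 185 CPM (-0.39, SE 0.0763, adjusted P = 0.00264). Neither gene had overlapping groups. Cfap100 had 50.1, 51.4 and 62.3 CPM against 68.3, 64.5 and 72.9 CPM (-0.33, SE 0.0777, adjusted P = 0.00788), and Cfap221 had 26.6, 27.1 and 28.9 CPM against 30.8, 35.1 and 36.6 CPM (-0.31, SE 0.0691, adjusted P = 0.00536). Cfap157 had a log2 fold change of -0.31 (SE 0.0622, adjusted P = 0.00306) and Cfap44 one of -0.29 (SE 0.0432, adjusted P = 0.000395). Cfap69 (-0.28, adjusted P = 0.000231), Cfap206 (-0.28, adjusted P = 0.000381) and Cfap300 (-0.26, adjusted P = 0.0115) also fell. Of these 9 genes, Cfap300 alone lost its call when a single testis was left out (without the second Kpna6-/- testis, adjusted P = 0.058).

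Cfap70 (-0.23), Cfap43 (-0.20), Cfap54 (-0.20) and Cfap99 (-0.19) fell too. The weaker calls were less stable. Cfap99 (adjusted P = 0.0129) did not pass without the second Kpna6ΔIBB/ΔIBB testis (0.0629), and Cfap54 did not pass when near-identical sequences of other genes were summed with it (-0.08, adjusted P = 0.0659). Cfap65 passed with -0.10 (adjusted P = 0.0493) and did not pass without any one of the Kpna6ΔIBB/ΔIBB testes (adjusted P from 0.0514 to 0.140) or without the first (0.168) or second (0.109) Kpna6-/- testis. Cfap36 passed with -0.13 (adjusted P = 0.0457) and did not pass without the first (0.144) or second (0.118) Kpna6ΔIBB/ΔIBB testis, nor without the second (0.119) or the third (0.180) Kpna6-/- testis. Cfap52 (-0.09, adjusted P = 0.172), Cfap61 (-0.13, adjusted P = 0.130), Cfap77 (-0.24, adjusted P = 0.129) and Cfap299 (-0.14, adjusted P = 0.0653) did not pass. Without the third Kpna6ΔIBB/ΔIBB testis Cfap61 (0.0122) and Cfap299 (0.0273) were called. Cfap298 had -0.02 (interval -0.10 to 0.06).

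**Figure D3:**
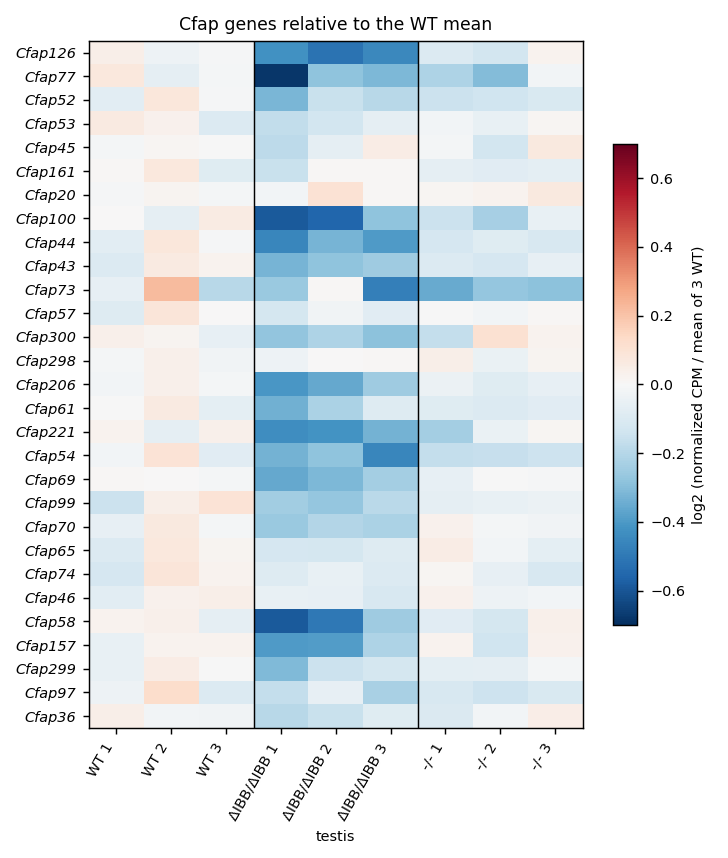
log2 ratio of the normalized CPM of each Cfap gene to the mean of the 3 WT testes, in rows grouped by the place of the protein, for the 9 testes in columns (blue lower, red higher). The median over the 29 genes was -0.28, -0.20 and -0.22 in the Kpna6ΔIBB/ΔIBB testes and between -0.08 and -0.02 in the Kpna6-/- testes.

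In this scaling over all 9 testes, the first Kpna6ΔIBB/ΔIBB testis was below the WT mean in 29 of 29 genes, and each of the other two in 25. The Kpna6-/- testes were below it in 22, 27 and 18 genes. The WT testes were themselves below their mean in 19, 5 and 20 genes, so the second WT testis stood above the other 2 in most members.

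On the reference, 3 Cfap genes share chromosome 4 with Kpna6 (chromosome 4, 129643980 to 129672767, GRCm38). Cfap57, at a distance of 11.1 Mb, and Cfap74, at 25.8 Mb, did not pass the test in any comparison. Cfap206, which fell in Kpna6ΔIBB/ΔIBB testes, lies 94.9 Mb away.

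Genes for other parts of the axoneme, in lists drawn up by role, were compared in the same way in Kpna6ΔIBB/ΔIBB against WT, where 18.9% of all genes tested were called lower. Of 18 dynein arm genes 13 fell and 0 rose, with a median log2 fold change of -0.26. Dnah3 (-1.10, SE 0.0802), Dnah12 (-0.69) and Dnah6 (-0.49), heavy chains of inner arms, fell with lower estimates than any Cfap gene. Of the outer arm heavy chains, Dnah5 (-0.62, adjusted P = 0.00563) and Dnah8 (-0.21, adjusted P = 0.00679) also fell, but Dnah5 was below 1 TPM in all 9 testes. Dnah9 (-0.37), Dnah11 (-1.27, SE 0.534) and Dnah17 (-0.06) did not pass. Of 6 other central apparatus genes 4 fell (median -0.27), led by Hydin (-0.67, SE 0.0535), the large protein of one projection. Among 15 ruler and lumen genes 11 fell (median -0.19), including the tektin Tekt2 (-0.43) and the inner protein Enkur (-0.47), while Mns1 (-0.02) did not pass. The counts were 6 of 10 for the nexin-dynein regulatory complex (median -0.14), 3 of 8 for radial spokes (median -0.04) and 3 of 9 for dynein arm assembly (median -0.16), with 0 genes higher in each. With library-size scaling and on the TPM scale the radial spoke median turned to 0.06, while the medians of the other 5 lists stayed below 0. Of 2 genes that other sources name Cfap91 and Cfap251, Maats1 fell (-0.21, adjusted P = 0.0183) and Wdr66 had -0.07 (adjusted P = 0.304). In Kpna6-/- against WT testes, where 1.6% of all genes tested were called, 1 gene of all these axoneme lists was called. It was Iqca of the nexin-dynein regulatory complex (-0.33, adjusted P = 0.0218), named after its values were seen. Between the mutant lines 16.8% of all genes tested were called lower in Kpna6ΔIBB/ΔIBB. Of the lists, 11 of 18 dynein arm genes and 11 of 15 ruler and lumen genes fell there. In the other lists 4 of 10, 3 of 8, 3 of 6 and 3 of 9 fell. On the TPM scale the nexin-dynein regulatory complex median between the mutant lines turned to 0.02 and the radial spoke median to 0.07. The medians of the remaining lists of this comparison stayed below 0.

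**Figure D4:**
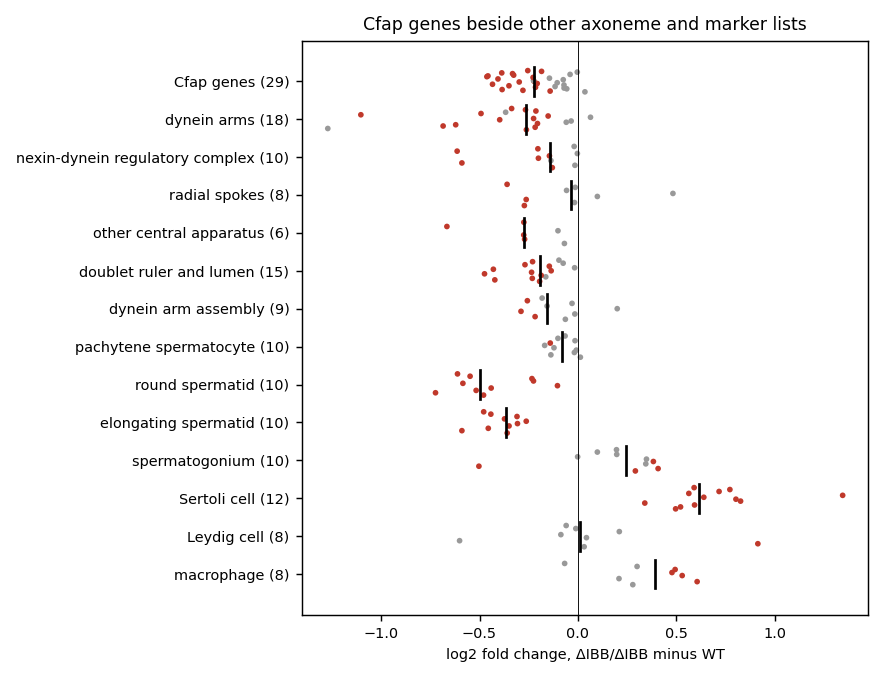
log2 fold change in Kpna6ΔIBB/ΔIBB relative to WT testes of each gene (points, red for an adjusted P below 0.05) in the Cfap set, in 6 other axoneme lists and in 7 cell type marker lists, with the number of genes tested in brackets and a black bar at the median. The Cfap median of -0.22 lies between the pachytene spermatocyte median of -0.08 and the round spermatid median of -0.50, and the Sertoli cell median is 0.62.

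Markers of other cells moved in the same comparison, beside the 18.9% of all genes called lower and the 17.7% called higher. In Kpna6ΔIBB/ΔIBB relative to WT testes, 10 of 10 round spermatid markers (median -0.50) and 10 of 10 elongating spermatid markers (median -0.37) fell, while 1 of 10 pachytene spermatocyte markers did (median -0.08, turning to 0.01 with library-size scaling and 0.03 on the TPM scale). Of 12 Sertoli cell markers 12 rose (median 0.62), and their summed TPM was 2038 to 2380 in Kpna6ΔIBB/ΔIBB, 1212 to 1338 in WT and 1534 to 1660 in Kpna6-/- testes. These values are relative to all RNA of a sample. The study itself counted fewer Sertoli cells per tubule in adults of both lines. Its quantitative PCR on adult testes detected no significant change for most Sertoli or androgen-regulated genes tested, which included Wt1, Rhox5 and Cldn11. The round spermatid markers summed to 2583 to 2803 TPM in Kpna6ΔIBB/ΔIBB, 2898 to 3107 TPM in WT and 2825 to 2934 TPM in Kpna6-/- testes. Of 10 spermatogonium markers 3 rose and 1 fell (median 0.24), of 8 macrophage markers 4 rose (median 0.39), and of 8 Leydig cell markers 1 rose (median 0.01). In Kpna6-/- against WT testes, where 1.6% of all genes tested were called, 4 of 12 Sertoli cell markers rose (median 0.27). Of the 10 markers of each spermatid list 0 were called (medians -0.09 and 0.05), which is near that share. The part of these shifts in the Cfap differences was not tested.

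Markers of multiciliated cells, which line the efferent ducts and also use Cfap genes, had low levels. Of 5 markers Gmnc, Mcidas and Sntn were below 1 TPM in all 9 testes, and the summed TPM of the 5 was 4.36 to 5.04 in WT, 3.66 to 4.73 in Kpna6ΔIBB/ΔIBB and 3.73 to 5.35 in Kpna6-/- testes. In Kpna6ΔIBB/ΔIBB against WT, edgeR called 1 of 4 markers tested lower, Trp73 (-0.49, adjusted P = 0.043). The median of the 4 was -0.34, and 18.9% of all genes tested were called lower. In Kpna6-/- against WT 0 of 4 were called (median -0.42), beside 1.6% of all genes tested. The part of these cells in the Cfap differences was not tested.

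Genes for axonemes are known targets of the RFX factors, which bind the X-box, and of Foxj1, a forkhead factor. Rfx3 had 35.4, 37.8 and 41.6 CPM in Kpna6ΔIBB/ΔIBB and 51.8, 49.3 and 48.2 CPM in WT testes (log2 fold change -0.38, SE 0.0648, adjusted P = 0.00112). Rfx1 (-0.24, adjusted P = 0.00557) and Rfx4 (-0.22, adjusted P = 0.011) also fell. Rfx2, the member most associated with spermatids, had 447, 474.5 and 459 CPM against 428.5, 450 and 426 CPM, overlapping groups with a log2 fold change of 0.08 (adjusted P = 0.116). Foxj1 had 72.9, 79.1 and 88.2 CPM against 85.8, 90.5 and 85.2 CPM, also overlapping (-0.12, adjusted P = 0.173). None of these factors was called between Kpna6-/- and WT testes.

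The promoters of the Cfap genes were searched for the letters of these sites, since many members moved together. RefSeq promoters on GRCm38.p6, from 250 bases before to 50 after each start, were at hand for 22 of the 29 genes. The X-box core GTTGCC was found on either strand in 9 of them, or 40.9%, against 14.1% of the genes in the table and 12.5% of all 32851 promoters. It was in 4 of 15 genes that fell in Kpna6ΔIBB/ΔIBB and in 5 of 7 that did not pass. A pair of cores, GTTGCC followed by GGNAAC after 0 to 3 bases, occurred among the members only in the promoter of Cfap298. It was found for 0.644% of all genes with a promoter and in 0.551% of all promoters. The full cAMP response element TGACGTCA was in 0 members (2.03% of all genes, 1.79% of all promoters). The forkhead site GTAAACA was in 2, Cfap20 and Cfap43 (4.05% of all genes, 3.65% of all promoters). Matches to the pair include a match to the core. The 5 windows below show the pairs of Cfap298, the gene with the value nearest to 0, and cores of 2 genes that fell, Cfap44 and Cfap58. They are written 5′ to 3′ on the strand of the gene with the matched letters in capitals, and GGCAAC is the core read on the other strand.
Cfap298 pair at -188, chr16:90935016-90935045, minus strand: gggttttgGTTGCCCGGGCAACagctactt
Cfap298 pair at -69, chr16:90934896-90934925, minus strand: tttgactGTTGCCCCTGGCAACagccactt
Cfap44 core at -129, chr16:44394658-44394687, plus strand: ggacgactctgtGGCAACacctcagtttag
Cfap44 core at -19, chr16:44394768-44394797, plus strand: ggacgttgctatGGCAACcgcagtaaacgg
Cfap58 core at -59, chr19:47937641-47937670, plus strand: gggggcgtggcgGTTGCCaggcgaccgaag

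Positions count from the RefSeq start of the gene. In the GENCODE annotation used for the counts, Cfap298 starts further upstream, at chr16:90935114 on the minus strand, so both of its pairs lie inside that gene. A match to these letters is a description of the sequence and does not show that a factor binds there.

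The transcripts that made up each gene were also compared. In WT the transcript with the largest share of the TPM was annotated as protein coding in 27 of 29 genes. A single transcript held all of the TPM in 6 genes. In 7 genes more than 25% of the TPM lay on transcripts of other types, such as retained introns. A share was taken as different where the 3 values per group did not overlap and their means differed by at least 5 percentage points. Only transcripts whose higher group mean reached 10% of the TPM of the gene, and likewise 2 TPM, were considered. With 3 against 3 the exact permutation test cannot go below P = 0.1, so these are descriptions. Between Kpna6ΔIBB/ΔIBB and WT this held for 7 of 51 transcripts, in 5 genes, beside 12.1% of transcripts of all genes. Between Kpna6-/- and WT it held for 1 of 50 (5.81% of transcripts of all genes) and between the mutant lines for 5 of 48 (10.4%). The Cfap counts were thus near those of transcripts in general.

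In Cfap97, the shares of 2 long coding transcripts moved in opposite directions. Shares within a gene add up to a fixed total, so these 2 shifts are not independent of each other. Cfap97-201 took 28.5%, 25.9% and 21.1% of the TPM of the gene in Kpna6ΔIBB/ΔIBB testes, 30.6%, 29.6% and 36.0% in WT and 37.6%, 35.5% and 39.3% in Kpna6-/- testes. Cfap97-206 took 37.1%, 37.3% and 41.9%, then 32.9%, 35.2% and 26.5%, and 27.7%, 29.03% and 25.1% in the same order. The shares of these 2 transcripts in Kpna6ΔIBB/ΔIBB did not overlap those of either other group, while the gene total did not pass the test. For Cfap77, Cfap77-204 took 50.3% ± 6.01 in Kpna6ΔIBB/ΔIBB, 50.3% ± 6.41 in Kpna6-/- and 38.9% ± 2.30 in WT testes (SD, n = 3 each), where both mutant lines were above WT. Cfap77-203, annotated for nonsense-mediated decay, took 3.62% ± 1.29 in Kpna6ΔIBB/ΔIBB and 10.4% ± 1.28 in WT (SD, n = 3). Cfap70-203 took 78.3% ± 0.911 in Kpna6ΔIBB/ΔIBB and 71.1% ± 5.56 in WT (SD, n = 3), and Cfap100-202 took 7.95% ± 1.06 against 13.5% ± 1.87 (SD, n = 3). Of these groups, Cfap77-203 and Cfap100-202 reached the limit of 10% only in WT, so the filter favoured a lower share in Kpna6ΔIBB/ΔIBB.

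Cfap61 had transcripts of very different lengths. Cfap61-210, a transcript of 577 bases of a non-coding type, had 23.3 ± 0.790 TPM in Kpna6ΔIBB/ΔIBB, 19.5 ± 3.95 TPM in WT and 15.0 ± 3.16 TPM in Kpna6-/- testes (SD, n = 3). The coding transcript Cfap61-206 of 3998 bases had 15.7 ± 0.835, 16.9 ± 1.60 and 16.6 ± 0.698 TPM (SD, n = 3). Between the mutant lines, the log2 fold change of the whole gene was -0.13 on counts and 0.27 on the log2(TPM + 1) scale, in opposite directions. These scales differ in length scaling, normalization and model at once, and the part of each was not tested.

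**Figure D5:**
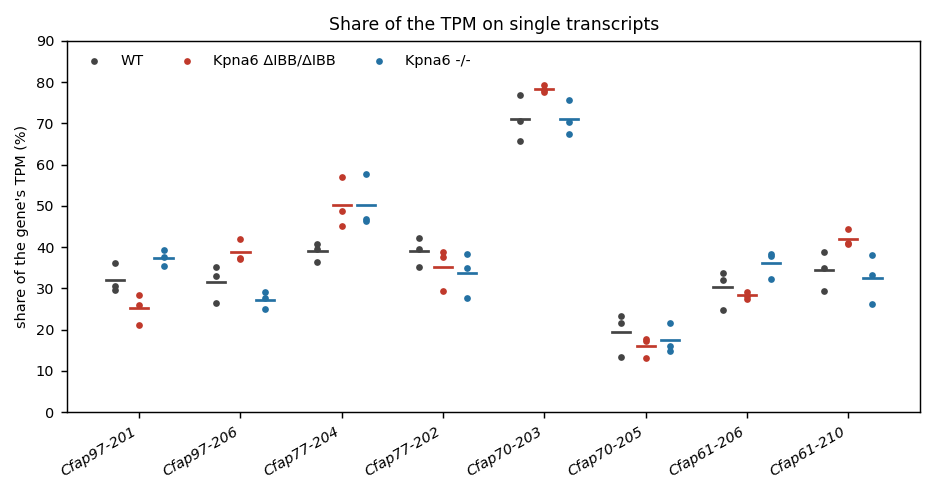
Share of the TPM of a gene, in percent, on 8 transcripts of Cfap97, Cfap77, Cfap70 and Cfap61, with a point for each testis and a bar at the mean of each genotype. Cfap97-201 and Cfap97-206 lie apart in Kpna6ΔIBB/ΔIBB from both other groups, with means of 25.2% and 38.8%.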

How the data were processed

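Poly(A) RNA libraries of 9 whole testes were assigned to mm10 transcripts by the authors with kallisto (version 0.45 in the submitters' processing notes). The authors deposited 1 table per testis with an estimated count, which is not normalized between samples, and a TPM value for each of 96626 transcripts. Of these, 95301 matched GENCODE M21 by identifier, with the same length in 93.3%, and 1325 were left out. Both values were summed per gene.

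For each comparison the gene counts of its 6 samples were rounded, passed through filterByExpr and scaled by TMM. The test was the quasi-likelihood one of edgeR 4.0.16 (R 4.3.3), adjusted by Benjamini-Hochberg over all genes tested. Intervals are 95% and unadjusted. TPM served for levels between genes and transcript shares. Depth was 24859751 to 31484692 counts on genes. Squared differences between replicates of a group were, in the median gene, 2.46 to 3.67 times those of counting noise. Nothing states more about their origin than a replicate number. P-values therefore set a difference against the spread between these samples, whether or not each came from a different mouse.

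The alternatives were DESeq2 1.42.0, library size only, no filter, all 9 samples in 1 fit, a replicate block, limma 3.58.1 on log2(TPM + 1), protein-coding transcripts only, genes summed with near-identical sequences (blastn 2.17.0+, at least 95% identity over 100 bases, found for 7 members), RefSeq membership and each testis left out. Deviations from the group means had correlations of -0.04 to 0.10 between same-numbered samples and of -0.14 to 0.08 between the others. The numbers were not taken as pairs, but these values cannot exclude a pairing. The procedure was tested on simulated data. Described in depth were, per comparison, the 6 lowest and highest called members with no overlap, and the 5 highest by WT TPM. Members and lists were chosen with earlier results of these data known. Tables were handled with pandas 2.3.3 in Python 3.11.15 and figures drawn with matplotlib 3.10.9.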

Additional observations from a re-analysis of the deposited data

How the results depend on the processing

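Counts of Cfap genes called stayed within 1.5 times the reported counts under DESeq2 (19, 0 and 15 lower for Kpna6ΔIBB/ΔIBB against WT, Kpna6-/- against WT and Kpna6ΔIBB/ΔIBB against Kpna6-/-), without the filter, with all 9 samples in 1 fit, with coding transcripts only and with near-identical sequences summed. With the replicate number as a block the counts were 19, 0 and 15, with medians of -0.22, -0.05 and -0.15. Nothing states whether same-numbered samples are pairs. Leaving out 1 testis gave 13 to 18 lower genes against WT (median log2 fold change -0.25 to -0.18) and 12 to 17 against Kpna6-/- (median -0.18 to -0.10).

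The medians moved with library-size scaling, to -0.13 against WT, with 2 genes higher, and to -0.045 against Kpna6-/-. With limma on log2(TPM + 1) they were -0.10, with 5 genes lower and 1 higher, and -0.0055, with 2 lower and 3 higher. The counts over all genes under these 2 scalings stand with each comparison above. With coding transcripts only the median against Kpna6-/- was -0.19. The cause was not tested, but both scalings also moved the median of all genes.

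Small differences turned sign. In Kpna6ΔIBB/ΔIBB against WT, library-size scaling gave log2 fold changes of 0.058 for Cfap161, 0.095 for Cfap298, 0.041 for Cfap45, 0.027 for Cfap57, 0.028 for Cfap46 and 0.024 for Cfap74. TPM gave 0.089 for Cfap161, 0.10 for Cfap298, 0.087 for Cfap45, 0.054 for Cfap57, 0.012 for Cfap65, 0.15 for Cfap46 and 0.081 for Cfap74. With each testis left out in turn, the ranges were -0.082 to 0.011 for Cfap161, -0.015 to 0.0090 for Cfap298 and -3.7e-05 to 0.059 for Cfap20. In Kpna6ΔIBB/ΔIBB against Kpna6-/-, library-size scaling gave 0.0061 for Cfap52 and 0.082 for Cfap298, and TPM gave 0.00033 for Cfap36, 0.051 for Cfap52, 0.11 for Cfap298, 0.27 for Cfap61 and 0.041 for Cfap65. In Kpna6-/- against WT, Cfap298 had -0.0090 on TPM, -0.020 with coding transcripts and -0.013 to 0.033 without single testes, and Cfap157 had 0.00033 with similar sequences summed and -0.057 to 0.028 without single testes.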
